A study of Mus musculus with 7 samples.

Results

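In the control library of embryonic day (E) 8.5, 126 of 5874 kept cells (2.15%, 95% interval 1.79 to 2.55) carried transcripts of hindbrain Hox genes and none of 4 genes that mark the forebrain and midbrain, migrating neural crest, mesenchyme or the floor plate. The cells were chosen by measured values. A cell was kept if it had at least 1000 detected genes and at most 10% mitochondrial counts. It was chosen if Hoxa2, Hoxb1, Hoxb2 and Egr2 had at least 2 unique molecular identifiers (UMIs, each standing for a captured transcript) in sum and if Otx2, Sox10, Twist1 and Shh had 0. The levels of these 8 genes therefore describe the choice and are no result. The whole series held 58432 kept cells.

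The series followed neural crest cells of the mouse pharyngeal region and heart, and asked how they change when Tbx1 is lost. Of its 7 single-cell RNA libraries, 4 were controls with the genotype Wnt1-Cre/+;ROSA-EGFPf/+, with 1 library each for E8.5 and E9.5 and 2 for E10.5. The other 3 libraries, 1 of E9.5 and 2 of E10.5, are titled Tbx1 null, and the study's sample list gives them as Wnt1-Cre/+;Tbx1-/-;ROSA-EGFPf/+, while their genotype label reads Wnt1-Cre/+;Tbx1+/-;ROSA-EGFPf/+. All 7 libraries are labelled Swiss-Webster, and the study's methods call this background mixed. In every library the cells were sorted for EGFP and against the dead-cell dye DAPI. Cre was driven by regulatory sequences of Wnt1, which are active in the dorsal neural tube and early neural crest, so the sort favoured cells with a history of Wnt1 activity and the level of Wnt1 is tied to it. At E8.5 the anterior part of the embryo was taken with its heart and head, and the labels call the cells neural crest cells. There was 1 library at E8.5 and its cells are not replicates, so the comparisons inside it carry no test.

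The embryonic hindbrain is divided along its length into segments called rhombomeres, each with its own combination of Hox transcription factors. Hoxa2 and Hoxb2 are used along most of it. Egr2, a zinc finger factor also called Krox20, marks a pair of alternate rhombomeres, Hoxb1 marks the rhombomere between them, and the Hox genes of paralogue group 3 are used further back. Hox proteins bind DNA together with Pbx and Meis cofactors, and retinoic acid sets how far forward Hox genes are used. Neural crest cells leave the dorsal edge of the hindbrain for the pharyngeal arches.

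The start regions of the genes that define these cells are shown because several of them are textbook targets of Hox and Pbx proteins, which together bind the motif TGATNNAT. The 250 bases before an annotated gene start were taken from RefSeq (GRCm38.p6) and are written 5′ to 3′ on the strand of the gene, with matches on either strand in capitals. The Hoxa2 window (chr6:52164832-52165081, minus strand) held 1 match, on the opposite strand, that began 111 bases before the start. The Hoxb1 window (chr11:96365508-96365757, plus strand) held 1 match, beginning 162 bases before the start. Egr2 had 5 annotated starts, and 1 of these windows (chr10:67537680-67537929, plus strand) held a match, beginning 46 bases before the start. The promoter table held 3 of the 4 summed genes, all but Hoxb2. Over all RefSeq windows of this length, 2524 of 32851 (7.68%) held a match, in 2380 of 27025 genes (8.81%). A match describes the letters and is no measured binding site.
Hoxa2: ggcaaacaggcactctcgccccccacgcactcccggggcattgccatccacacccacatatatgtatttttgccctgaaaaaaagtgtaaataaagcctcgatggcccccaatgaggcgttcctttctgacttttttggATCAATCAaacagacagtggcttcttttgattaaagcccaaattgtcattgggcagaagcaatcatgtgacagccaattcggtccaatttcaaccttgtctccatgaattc
Hoxb1: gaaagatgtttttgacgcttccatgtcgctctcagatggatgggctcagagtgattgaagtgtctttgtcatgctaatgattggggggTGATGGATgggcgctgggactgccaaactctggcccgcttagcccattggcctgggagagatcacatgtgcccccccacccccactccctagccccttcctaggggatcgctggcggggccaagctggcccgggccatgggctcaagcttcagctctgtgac
Egr2: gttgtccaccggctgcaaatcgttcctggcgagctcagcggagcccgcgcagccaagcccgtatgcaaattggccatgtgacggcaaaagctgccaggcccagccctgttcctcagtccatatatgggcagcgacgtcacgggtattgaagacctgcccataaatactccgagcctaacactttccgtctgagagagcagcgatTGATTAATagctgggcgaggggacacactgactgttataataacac

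On GRCm38, Hoxa2 (ENSMUSG00000014704) lies on chromosome 6 at 52162417 to 52164831 on the minus strand, and Egr2 (ENSMUSG00000037868) on chromosome 10 at 67535475 to 67542188 on the plus strand. Hoxb1 (ENSMUSG00000018973) lies on chromosome 11 at 96365752 to 96368256 and Hoxb2 (ENSMUSG00000075588) on the same chromosome at 96350525 to 96354012, both on the plus strand. The antisense gene Hoxb3os (chromosome 11, 96343072 to 96354691, minus strand) overlaps Hoxb2. Hoxd3 (chromosome 2, 74711927 to 74748442) overlaps Hoxd4 (74711929 to 74729160) on the plus strand. The sources used here do not state whether strand was used in counting, so the counts of Hoxb2 with Hoxb3os cannot be told apart with certainty. Hoxd3 and Hoxd4 lie on the same strand, and how reads from their shared stretch were assigned is not stated either.

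The 126 Hox-expressing cells held 2527120 UMIs in sum, between 4849 and 46949 a cell with a median of 19388.5. The median of the 5748 other kept cells was 23190 UMIs. Levels are given as CPM, the summed UMIs of a gene per 1000000 UMIs of the same cells, with exact 95% Poisson intervals. Shares of cells carry exact Clopper-Pearson intervals, ratios of CPM carry exact conditional intervals, and all of these cover counting error only. The library shared between 0 and 2 cell barcodes with each other library. A doublet score placed 2 of the 126 cells among the 287 highest cells of the library.

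The exclusion of 4 genes removed most cells with Hox transcripts. Of 716 kept cells with at least 2 UMIs of the summed genes, 590 were left out. Sox10, a gene of migrating crest, was found in 524 of them, Twist1 in 328, Otx2 in 30 and Shh in 1. For 94 cells the reason was 1 UMI. Among the chosen cells the sum ran from 2 to 45 UMIs with a median of 7. Just inside the threshold, 14 cells had a sum of 2 UMIs, and 5 of them had at least 2 UMIs of the neural genes Sox1, Sox2 and Sox3. Also 5 of the 14 had at least 2 UMIs of the crest genes Foxd3, Snai2, Tfap2a and Tfap2b. Just outside the threshold, 27 cells had a sum of 1 UMI and none of the excluded genes. Of these 27 cells, 10 reached the same neural level and 6 the same crest level.

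Hoxb2 was detected in 117 of the 126 cells (92.9%), Hoxa2 in 90 (71.4%), Hoxb1 in 50 (39.7%) and Egr2 in 33 (26.2%). With every cell thinned to 5000 UMIs, which kept 125 cells, the shares were 56.8%, 36.0%, 22.4% and 17.6%. As background, 1128 cells with at least 2 UMIs of Otx2, a forebrain and midbrain factor, and none of Sox10, Twist1 or Shh, here called Otx2 neural cells, held Hoxb2 in 12 cells (1.06%), Hoxa2 in 7, Hoxb1 in 5 and Egr2 in 2. Their median depth was 20396.5 UMIs. In the Hox-expressing cells Hoxb2 stood at 216 CPM (199 to 235), Hoxa2 at 106 CPM (93.7 to 120), Hoxb1 at 81.9 CPM (71.1 to 93.9) and Egr2 at 39.2 CPM. The 4 genes did not always occur together: 19 cells held UMIs of 1 gene, 55 of 2, 47 of 3 and 5 of all 4.

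The name hindbrain cells, read as neural cells, was only partly borne out by markers outside the rule. These markers separate neural from crest genes and do not give the position of a cell. The neural genes Sox1, Sox2 and Sox3 and the crest genes Foxd3, Snai2, Tfap2a and Tfap2b were each summed, with 2 UMIs as the threshold. By these sums 53 cells were neural (42.1%, 33.3 to 51.2) and 39 were crest (31.0%, 23 to 39.8), 6 passed both thresholds and 28 passed neither. The median depth was 18374 UMIs in the neural class and 21716 in the crest class. The cells are called Hox-expressing cells here for that reason, and the classes are ranges of low counts rather than types, as the plot of both sums shows.

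**Figure D1:**
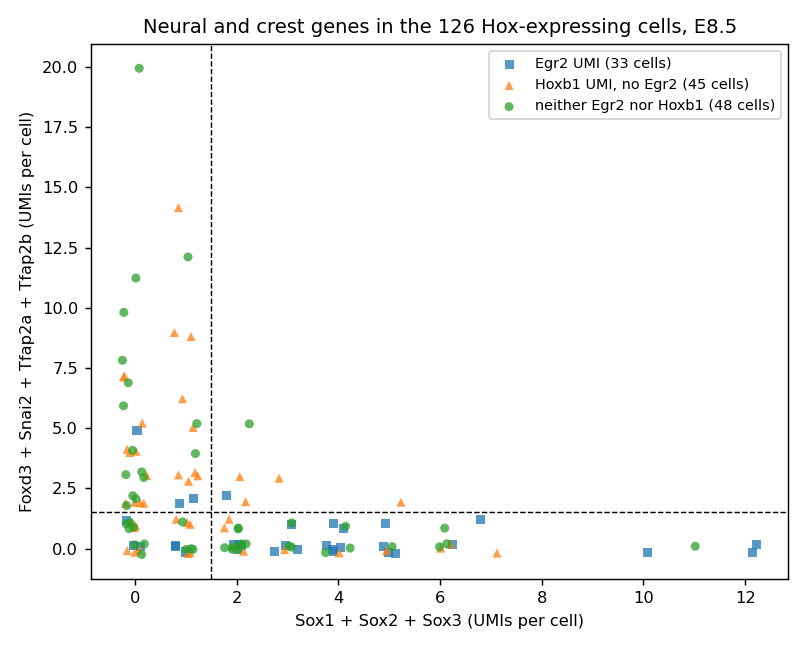
Sum of Sox1, Sox2 and Sox3 UMIs (horizontal) against the sum of Foxd3, Snai2, Tfap2a and Tfap2b UMIs (vertical) in each of the 126 Hox-expressing cells at E8.5, with a small random shift so that cells do not hide each other. With 2 UMIs as the threshold, 53 cells are neural, 39 are crest, 6 pass both and 28 pass neither.

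Most Hox transcripts outside the rule came from genes of paralogue groups 3 and 4. Of 36 other Hox genes, 11 had a UMI in the Hox-expressing cells, 218 UMIs in all, and 53 of the 126 cells held at least 1. Hoxd3 stood at 24.5 CPM and was found in 30 cells, and Hoxd4 stood at 21.8 CPM and was found in 26 cells. Lower levels were seen, among others, for Hoxb4 (10.3 CPM), Hoxa3 (7.91 CPM), Hoxb3 (6.33 CPM) and Hoxc4 (4.75 CPM). Hoxb5 had 3 UMIs and Hoxb8, of the posterior groups, 1. The remaining 25 genes, which include nearly all of the posterior groups, had 0 UMIs, and 0 UMIs allow a level of up to 1.19 CPM (3 counts).

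Against all other kept cells, 116 of 6303 genes with a mean level of at least 10 CPM were at least 2-fold higher in the Hox-expressing cells (1.84%) and 91 were at least 2-fold lower (1.44%). The limit is on the mean of both levels, so a gene that is low in one set can reach it through the other set alone. Of the 116 higher genes 68 lay under 10 CPM in the other cells, and of the 91 lower genes 54 lay under 10 CPM in the Hox-expressing cells. All counts of listed genes rest in part on this filter and are a description. Hoxd3 was 19.3-fold higher (14.2 to 25.9) and Hoxd4 17.7-fold higher (12.8 to 24.2). The other Hox genes did not reach that mean level. Hotairm1, a noncoding RNA of the Hoxa cluster (chromosome 6, 52156902 to 52162119, plus strand), stood at 24.5 CPM against 1.48 CPM, a ratio of 16.6 (12.3 to 22.2). Hoxb3os stood at 87.8 CPM, 9.62-fold higher (8.30 to 11.1). These genes neighbour genes of the rule, and most of the other cells had failed its Hox threshold.

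Of the Hox cofactors, Meis1 and Meis2 were at least 2-fold higher. Of 9 listed cofactor genes, 7 reached 10 CPM and 2 of these were at least 2-fold higher, beside 1.84% of all genes. Meis2 stood at 193 CPM against 58.2 CPM (3.31-fold, 3.02 to 3.63) and Meis1 at 70.4 CPM against 12.1 CPM (5.83-fold, 4.96 to 6.80). Pbx4, whose mean was under 10 CPM, stood at 11.9 CPM against 4.99 CPM (2.38-fold, 1.59 to 3.43). Meis1 and Meis2 were also the 2 of 8 genes that were higher against the Otx2 neural cells and against the isthmus and rostral hindbrain cells described next, and against the Sox10 Hox cells 0 of 6 were.

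The Hox-expressing cells were compared with 3 sets of cells of the same library. The Otx2 neural cells stand for the neural tube ahead of the hindbrain. Isthmus and rostral hindbrain cells (440 cells) had at least 2 UMIs of Fgf8, Fgf17 and Gbx2 in sum and none of the 8 rule genes, and Sox10 Hox cells (506 cells) had the Hox sum with Sox10 and without Otx2 and Shh. Their median depths were 18070.5 and 25549.5 UMIs. Against the Otx2 neural cells 119 of 6375 genes were at least 2-fold higher (1.87%) and 130 lower (2.04%). Against the isthmus cells 122 of 6390 genes were higher (1.91%) and 135 lower (2.11%), and against the Sox10 Hox cells 134 of 6256 genes were higher (2.14%) and 98 lower (1.57%). The 98 became 53 when 1 UMI of the excluded genes was allowed. All of these sets were cut by measured values, so the genes that define them differ by construction.

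Listed genes of the dorsal neural tube had higher levels in the Hox-expressing cells than in the other cells of the sort. Of 20 listed genes 11 reached 10 CPM and these 11 were at least 2-fold higher, beside 1.84% of all genes, with a median log2 ratio of 2.75 where the median of all 6303 genes was -0.001. Of the 11 genes, 6 lay under 10 CPM in the other cells, Olig3 and Zic1 among them, and reached the limit through the Hox-expressing cells. The same counts were 11 of 11 against the Otx2 neural cells, 7 of 11 against the isthmus cells and 8 of 10 against the Sox10 Hox cells. None of these was at least 2-fold lower in any of the 4 comparisons. Listed neural crest genes moved beside them: 11 of 13 were higher and 0 lower against the Otx2 neural cells (Foxd3, Sox9, Tfap2a, Tfap2b and Ets1 among them), 10 of 13 were higher and 0 lower against the isthmus cells, 2 of 14 were higher and 4 lower against the other cells, and 0 of 14 were higher and 6 lower against the Sox10 Hox cells. Pax3 stands in both lists. The part of crest cells in the dorsal counts was not tested. Msx1, a homeobox factor of the dorsal midline, stood at 202 CPM (185 to 221), 7.54-fold above the other cells (6.86 to 8.27). Msx3, a homeobox factor known from the dorsal neural tube, stood at 167 CPM (151 to 183), in the Otx2 neural cells at 1.15 CPM and in the Sox10 Hox cells at 49.6 CPM, where 219 of 506 cells held it. Zic1, a zinc finger factor of the dorsal tube, stood at 80.3 CPM (69.7 to 92.2), 9.01-fold higher than in the other cells and 3.52-fold higher than in the Otx2 neural cells (2.98 to 4.14).

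Olig3, which marks the dorsal progenitors that give rise to sensory and precerebellar neurons, had the largest ratio to the other cells among the genes outside the rule with a mean level of at least 10 CPM. It stood at 29.3 CPM (23 to 36.8) in 40 of the 126 cells, against 0.763 CPM in the other cells, a ratio of 38.4 (28.1 to 52.2). Against the Sox10 Hox cells the ratio was 19.9 (12 to 34.5). Wnt1 itself stood at 144 CPM (129 to 159) and was found in 93 cells. It was 5.11-fold above the other cells (4.57 to 5.69), 2.08-fold above the Otx2 neural cells (1.85 to 2.33) and 3.09-fold above the Sox10 Hox cells (2.71 to 3.52). All cells of the library had passed a sort that rests on Wnt1 regulatory sequences. Rspo3, a secreted protein that raises Wnt signalling, stood at 22.6 CPM, 14.2-fold higher than in the other cells (10.4 to 19.0). Of 28 listed Wnt and FGF genes 12 reached 10 CPM. Of these 4 were at least 2-fold higher and 3 lower (Fgf8, Spry1 and Dusp6), beside 1.84% and 1.44% of all genes. Higher and lower were 2 and 2 of 11 against the Otx2 neural cells and 4 and 2 of 10 against the Sox10 Hox cells. Against the isthmus cells, which Fgf8 and Fgf17 helped choose, 3 of 14 were higher and 6 lower. Gdf7, a signal of the roof plate, had 0 UMIs.

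**Figure D2:**
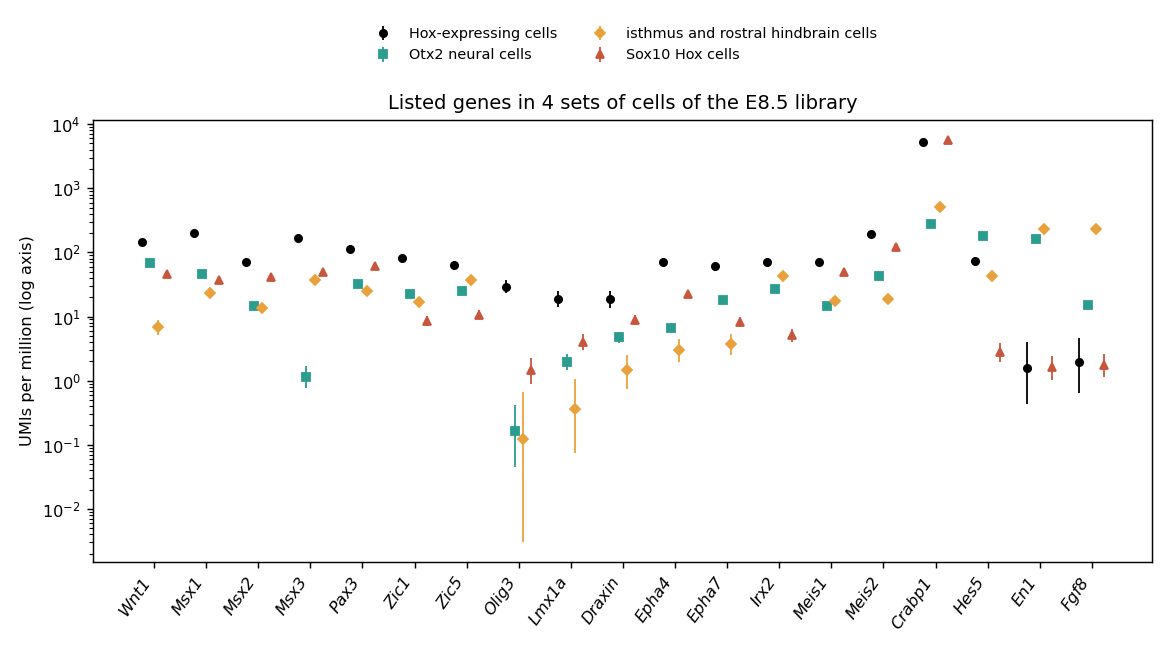
Level in CPM (log axis) of listed dorsal, rhombomere, cofactor, retinoic acid and isthmus genes in 4 sets of cells of the E8.5 library: Hox-expressing, Otx2 neural, isthmus and rostral hindbrain, and Sox10 Hox cells. Bars are exact 95% Poisson intervals. The Hox-expressing cells have the highest Msx1 (202 CPM) and Olig3 (29.3 CPM), and low En1 (1.58 CPM) and Fgf8 (1.98 CPM).

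Genes that set up rhombomeres and their boundaries were in part higher. Of 24 listed genes 15 reached 10 CPM, and 7 were at least 2-fold higher and 1 lower than in the other cells, beside 1.84% and 1.44% of all genes. Of the 7 higher genes 4 lay under 10 CPM in the other cells, Epha4, Epha7 and Nab2 among them, and the lower gene was Pou3f1. Against the Otx2 neural cells 6 of 15 were higher and 3 lower (Irx1, Irx5 and Pou3f1), against the isthmus cells 6 of 16 were higher and 3 lower (Gbx2, Irx1 and Pou3f1), and against the Sox10 Hox cells 5 of 14 were higher and 0 lower. Gbx2 helped choose the isthmus cells, so its lower level against them is by construction. Epha4 and Epha7 were among the higher genes in all 4 comparisons. Efnb3 was not higher against the Otx2 neural or the isthmus cells, Irx2 was not higher against the isthmus cells, and Nab2 was not higher against the Sox10 Hox cells. Epha4, a receptor that keeps cells of neighbouring rhombomeres apart and a known target of Egr2, stood at 70.8 CPM (60.8 to 82.0) in 68 cells. It was 8.6-fold above the other cells (7.31 to 10.1), 10.6-fold above the Otx2 neural cells (8.54 to 13.2) and 23.5-fold above the isthmus cells (15.4 to 37.2). Epha7, a related receptor, stood at 61.3 CPM in 59 cells, 7.83-fold higher (6.57 to 9.27).

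En1 and Fgf8, genes of the isthmus and midbrain, were low, while Wnt1, which stands in the same list, was not. The rule left out every cell with a UMI of the forebrain and midbrain factor Otx2. Low levels of midbrain genes are therefore tied to the choice of cells and are a description. En1, a homeobox factor of the midbrain and the front of the hindbrain, stood at 1.58 CPM, from 4 UMIs, and was 42.8-fold lower than in the other cells (16.7 to 157) and 148-fold lower than in the isthmus cells (57.6 to 542). Fgf8, the signal of the isthmus, stood at 1.98 CPM and was 116-fold lower than in the isthmus cells (49.6 to 357), which were chosen on it. Tal2, a midbrain factor, had 0 UMIs against 22.5 CPM in the other cells, which makes it at least 18.9-fold lower with a floor of 3 counts over the 126 cells. Of 12 listed midbrain and isthmus genes, 4 reached 10 CPM against the other cells. Of these 1 was at least 2-fold higher (Wnt1) and 2 were lower (En1 and Fgf8), beside 1.84% and 1.44% of all genes.

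Among the 20 listed retinoic acid genes, 6 reached 10 CPM and 2 were at least 2-fold higher, beside 1.84% of all genes, both of them binding proteins. Against the Otx2 neural cells 4 of 7 were higher, against the isthmus cells 4 of 6, and against the Sox10 Hox cells 0 of 9 were higher and 1 was lower. Crabp1 stood at 5342 CPM and was found in all 126 cells. It was 4.4-fold above the other cells (4.32 to 4.48) and 19.1-fold above the Otx2 neural cells (18.5 to 19.6), while the Sox10 Hox cells had 1.06-fold more (1.05 to 1.08). Crabp2 stood at 1668 CPM, 4.2-fold higher than in the other cells (4.07 to 4.33). Cyp26b1, which breaks retinoic acid down, stood at 12.7 CPM against 1.08 CPM, a ratio of 11.7 (7.72 to 17.2), with a mean level under the 10 CPM limit.

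The general neural genes gave no uniform picture. Of 12 listed genes 11 reached 10 CPM, and Sox1, Nes and Pax6 were at least 2-fold higher than in the other cells and Sox21 and Hes3 lower, beside 1.84% and 1.44% of all genes. Against the Otx2 neural cells 2 of 12 were higher and 4 lower, against the isthmus cells 2 of 12 and 3, and against the Sox10 Hox cells 4 of 8 and 0. Sox2, a factor of neural progenitors, stood at 83.5 CPM, 1.46-fold above the other cells (1.27 to 1.67) but 1.68-fold below the Otx2 neural cells (1.47 to 1.94). Hes5, a Notch target, stood at 72.4 CPM, 2.53-fold below the Otx2 neural cells (2.18 to 2.95) and 26-fold above the Sox10 Hox cells (18.2 to 37.9). Of 15 listed neuronal genes 2 reached 10 CPM and 1 was at least 2-fold higher, beside 1.84% of all genes. Stmn2, a tubulin-binding protein of young neurons, stood at 60.1 CPM against 22.6 CPM (2.66-fold, 2.25 to 3.13), and at about the same level in the Sox10 Hox cells (ratio 1.01, 0.842 to 1.20). Tubb3, a neuronal tubulin, stood at 71.2 CPM against 74.7 CPM. The proneural factor Neurod1 and the motor neuron factor Isl1 had 0 UMIs and Elavl3 had 3 UMIs. All 15 S phase and all 15 G2/M genes reached 10 CPM, and none differed 2-fold in any of the 6 comparisons made.

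Markers of other cell types were near 0 for blood and endothelium and present for the others. Blood markers summed to 3 UMIs (1.19 CPM, 2 of 9 genes seen), with the globins Hbb-y, Hbb-bh1, Hba-a1 and Hba-a2 and the erythroid factor Gata1 at 0. Endothelial markers summed to 12 UMIs (4.75 CPM, 2 of 8 genes), with Pecam1 and Cdh5 at 0. Mesoderm and heart markers stood at 51.0 CPM (8 of 16 genes), against 112 CPM in the other cells, and endoderm and surface ectoderm markers at 57.8 CPM (8 of 12 genes), against 44.0 CPM. Of the mesoderm list 2 genes reached 10 CPM, and of these Tcf15 was at least 2-fold higher than in the other cells (18.6 against 8.25 CPM) and Mef2c lower (19.4 against 81.1 CPM). Of the ectoderm list 2 genes reached it, and Tfap2c was higher (24.9 against 4.93 CPM) and none was lower. The shares of all genes were 1.84% and 1.44%. The mesoderm genes went otherwise against other sets. Against the Otx2 neural cells Mef2c was at least 2-fold higher, and against the isthmus cells both Mef2c and Tcf15 were. Against the Sox10 Hox cells Tcf15 was higher and Mef2c and Meox1 were lower. Otic placode markers stood at 135 CPM (9 of 13 genes), against 84.1 CPM, and Oc90 was at 0. That list holds Sox9, which crest cells also use. Arch mesenchyme genes stood at 71.6 CPM against 217 CPM, and forebrain genes at 6.33 CPM against 19.2 CPM. The part of these genes in the ratios above was not tested.

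The Hox-expressing cells were also grouped by Egr2 and Hoxb1. Egr2 was found in 33 cells, Hoxb1 without Egr2 in 45, and neither in 48. Of the 33 Egr2 cells 23 were neural (69.7%, 51.3 to 84.4) and 3 were crest. Of the 45 Hoxb1 cells 10 were neural and 20 were crest (44.4%, 29.6 to 60.0). The 48 cells with neither gene were mixed, with 20 neural and 16 crest cells. The median depths were 17206, 20010 and 19475 UMIs. Both genes are in the sum that chose the cells, so a cell with neither holds Hoxa2 or Hoxb2 by choice, and crest cells with Sox10 had been left out by the rule. These shares are a description and nothing is read from their differences.

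Cells that held Egr2 together with Hoxd3, Hoxd4 or Hoxa3 were counted among the Hox-expressing cells and among the Sox10 Hox cells. In the 126 Hox-expressing cells Hoxd3 and Egr2 shared 3 cells, where the product of their shares gives 7.86, and Hoxd4 and Egr2 shared 0 cells, where it gives 6.81. In the 506 Sox10 Hox cells they shared 11 cells, against 6.46, and 5 cells, against 4.67. Hoxa3 and Egr2 shared 5 cells, against 4.45, in the Hox-expressing cells and 23, against 7.31, in the Sox10 Hox cells. Egr2 helped choose both sets, and the difference between them was not tested. In the Hox-expressing cells Hoxd3 and Hoxb3, of the same paralogue group on different chromosomes, shared 7 cells, against 3.33. Hoxd3 and Hoxd4 shared 17 cells, against 6.19, and they are the pair whose annotated genes overlap. Shared cells depend on depth as well as on the genes, and these numbers are a description.

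**Figure D3:**
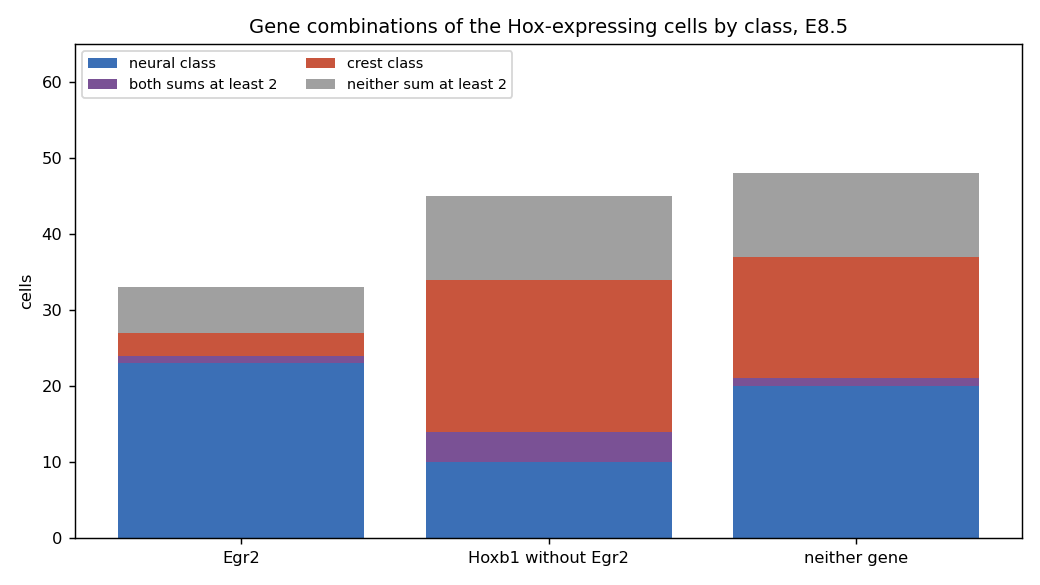
Number of Hox-expressing cells with Egr2 (33 cells), with Hoxb1 and no Egr2 (45) and with neither gene (48). Colours give the neural class, the crest class, both and neither. The Egr2 bar holds 23 neural cells and the Hoxb1 bar 20 crest cells.

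Genes linked to Egr2 in textbooks are given for the Egr2 and the Hoxb1 cells as a description, since genes of the rule split these cells and since the groups differ in class, with 3 of 33 and 20 of 45 crest cells. Epha4 stood at 151 CPM (121 to 185) in the 33 Egr2 cells and was found in 27 of them, where the product of shares gives 17.8, and at 29.0 CPM in the Hoxb1 cells. Nab2, a partner protein that Egr2 induces and that restrains it, stood at 62.0 CPM (43.6 to 85.4) against 5.00 CPM (1.62 to 11.7). Hoxd4, Foxd3 and Rspo3 had 0 UMIs in the Egr2 cells, which allows up to 5.02 CPM each (3 counts).

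Rspo3, Sox9 and Gadd45a are given in the same way, and all 3 were also at least 2-fold lower in the neural than in the crest class. Rspo3 stood at 47.0 CPM (34.6 to 62.5) in 21 of the 45 Hoxb1 cells. Sox9, a crest factor, stood at 161 CPM (137 to 188) against 36.8 CPM (23.1 to 55.8) in the Egr2 cells. Gadd45a, a growth arrest gene, stood at 235 CPM (206 to 267) against 62.0 CPM (43.6 to 85.4), where 2 of the Egr2 cells held 23 of its 37 UMIs. The cells were split by a UMI of 1 gene at unequal depths, and a cell without a UMI may still use the gene.

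The neural and crest classes of the Hox-expressing cells were compared in the same way, and 251 of 6345 genes were at least 2-fold higher in the neural class (3.96%) and 173 at least 2-fold lower (2.73%). The classes held 53 and 39 cells, so that the counts behind a ratio were smaller. Their 7 defining genes are left out of every count. As a description, since these genes chose the cells, Hoxa2 stood at 165 CPM in the neural class and 32.4 CPM in the crest class, Egr2 at 64.6 and 14.5 CPM (11 of its 13 UMIs in the crest class came from 2 cells), Hoxb1 at 45.0 and 117 CPM, and Hoxb2 at 262 and 168 CPM.

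Rhombomere genes were mostly on the neural side. Of 24 listed genes 15 reached 10 CPM, and 11 were at least 2-fold higher in the neural class and 1 was lower, beside 3.96% and 2.73% of all genes. Of the 11 genes, 4 lay under 10 CPM in the crest class and reached the limit through the neural class. Irx2, a homeobox factor of the neural tube, stood at 125 CPM against 11.2 CPM (11.2-fold, 5.91 to 24). Epha7 stood at 102 CPM against 21.2 CPM (4.80-fold, 2.92 to 8.29) and Epha4 at 103 CPM against 32.4 CPM (3.17-fold, 2.09 to 4.97). Fgf3, a signal made in the hindbrain, stood at 19.6 CPM against 1.12 CPM, which is 1 UMI in the crest class (17.5-fold, 2.80 to 726). Of its 20 UMIs in the neural class 17 came from 2 cells, and the other 51 cells had 3 UMIs (3.04 CPM), so that Fgf3 reached the limit, and the ratio, through these 2 cells. Of 9 listed pan-neural genes that did not define the class 7 reached 10 CPM, and 3 (Hes5, Fabp7 and Pax6) were at least 2-fold higher in the neural class and 0 lower, beside 3.96% and 2.73% of all genes, with Hes5 at 143 CPM (93.4 CPM without the 2 highest cells) against 11.2 CPM and Pax6 at 60.7 CPM against 7.82 CPM.

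Crest genes outside the class definition were on the other side. Of 16 listed genes 11 reached 10 CPM, and 7 were at least 2-fold lower in the neural class and 0 higher, beside 2.73% and 3.96% of all genes. Of the 7 genes, 4 lay under 10 CPM in the neural class, Ets1 among them, and reached the limit through the crest class. Sox9 was 10.4-fold lower in the neural class (21.5 against 225 CPM, 6.70 to 17.0) and Ets1, a factor of cranial crest, was 16.4-fold lower (2.94 against 48.0 CPM, 5.23 to 82.4). The dorsal genes did not divide in this way. Of 20 listed dorsal genes 14 reached 10 CPM, and 2 (Pax7 and Olig3) were at least 2-fold higher and 1 (Wnt3a) lower. Olig3 stood at 48.9 CPM against 11.2 CPM (4.38-fold, 2.20 to 9.69). Wnt1 stood at 122 CPM in the neural class and 182 CPM in the crest class, Msx1 at 213 CPM and 156 CPM, and Zic1 at 87.1 CPM and 72.6 CPM, with a Zic1 ratio of 1.20 (0.862 to 1.68).

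The crest class lacked Sox10 and Twist1 by the rule, and most dorsal neural tube genes compared stood higher in it than in the Sox10 Hox cells. Of 6203 genes 142 were at least 2-fold higher in the crest class than in the Sox10 Hox cells (2.29%) and 105 lower (1.69%). With 1 UMI of the excluded genes allowed, the crest class held 97 cells and these counts were 36 and 18. Of the dorsal genes 7 reached 10 CPM, and 6 of them were higher and 0 lower. Of the 6 genes, 2 lay under 10 CPM in the Sox10 Hox cells, Zic1 among them, and reached the limit through the crest class. Zic1 stood at 72.6 CPM against 8.59 CPM (8.45-fold, 6.14 to 11.5), Wnt1 at 182 CPM against 46.5 CPM (3.91-fold, 3.27 to 4.65) and Msx1 at 156 CPM against 36.5 CPM (4.29-fold, 3.53 to 5.18). Rspo3 stood at 35.7 CPM against 1.47 CPM (24.3-fold, 13.5 to 44.9). Of 16 listed crest genes 11 reached 10 CPM, and 2 were lower (Snai1 and Inka1) and 1 was higher (Pax3). Inka1 stood at 45.8 CPM against 179 CPM (3.91-fold lower, 2.87 to 5.46). Of 13 listed arch mesenchyme genes 5 reached 10 CPM and 4 were lower, among them Dlx2 at 11.2 CPM against 28.1 CPM (2.52-fold lower, 1.35 to 5.29). Tfap2a, a crest factor used to define the class, was near level, at 73.7 CPM against 69.3 CPM.

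**Figure D4:**
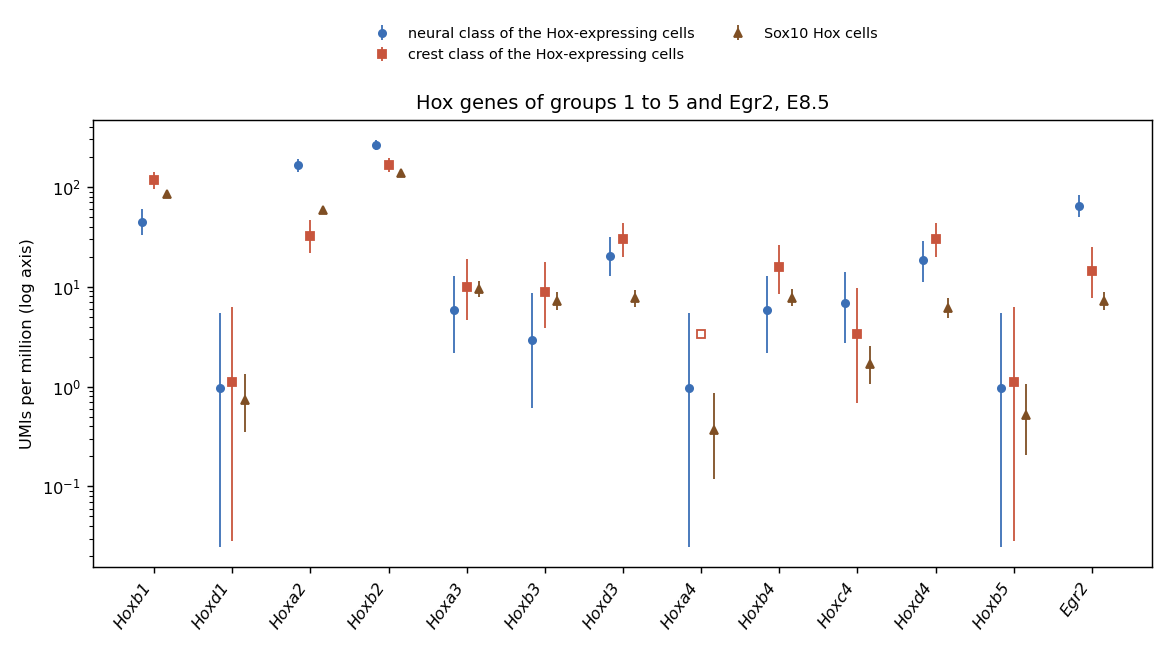
Level in CPM (log axis) of Egr2 and of named Hox genes of groups 1 to 5 in the neural class, the crest class and the Sox10 Hox cells. Bars are exact 95% Poisson intervals and open markers are genes with 0 UMIs, drawn at the floor of 3 counts. Hoxa2, Hoxb1, Hoxb2 and Egr2 chose the cells and are drawn as a description. Hoxd3 is at 20.6 CPM in the neural class, 30.2 CPM in the crest class and 7.71 CPM in the Sox10 Hox cells.

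The same rule selected more cells in every other library. Among the later controls it chose 16.7% of kept cells (E9.5, 1435 cells), 38.3% and 13.0% (E10.5, 2 replicates). The Tbx1 null libraries gave 12.9% (E9.5), 40.6% and 41.8% (E10.5). The 2 control replicates of E10.5 lay far apart, and no difference between genotypes was tested. With each cell thinned to 5000 UMIs the share was 3.21% at E8.5, 11.3% in the control at E9.5 and between 8.83% and 29.0% over the other 5 libraries. Thinning can bring the excluded genes as well as the summed genes to 0, and the share at E8.5 was higher after it. The libraries differ in age, in the tissue taken in kit version as the labels' protocols give it (v2 at E8.5 and v3 or v3.1 at the others) and in sequencing instrument and provider, and these cannot be told apart.

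**Figure D5:**
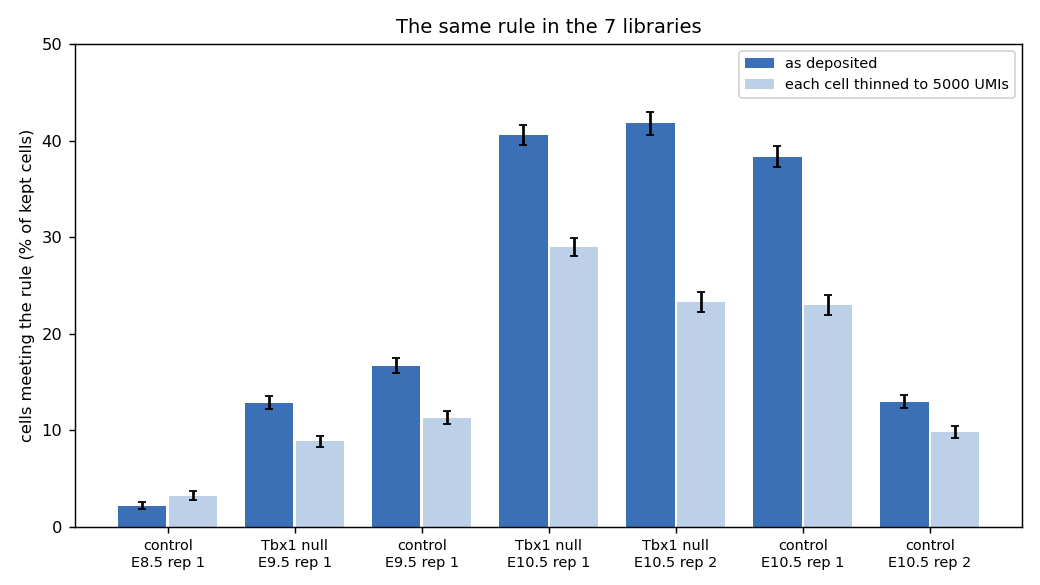
Share of kept cells that met the rule in each of the 7 libraries, as deposited and with each cell thinned to 5000 UMIs, with exact 95% Clopper-Pearson intervals. The E8.5 library is lowest at 2.15%, and the second Tbx1 null library at E10.5 is highest at 41.8%.

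The neural class was 42.1% of the chosen cells at E8.5 (33.3 to 51.2). Of the later controls, the E9.5 library had 86.3% and the 2 E10.5 libraries 70.8% and 39%. The Tbx1 null libraries had 81.9% (E9.5), 79.3% and 62.1% (E10.5). The second E10.5 control thus lay inside the E8.5 interval, which covers counting error only, and the other 5 libraries lay above it. The chosen cells of that control had a median of 9882 UMIs, against 19388.5 at E8.5 and 14799.5 or more in the other 5 libraries. In that control 482 of 1329 cells passed neither threshold. The class needs 2 UMIs, so its share depends on depth as well as on the make-up of the cells. As a description of genes in the rule, Egr2 stood at 39.2 CPM at E8.5 and between 0.330 and 5.36 CPM in the other 6 libraries, and Hoxb1 at 81.9 CPM and between 13.8 and 33.2 CPM. Hoxb2 at 216 CPM and Hoxa2 at 106 CPM lay inside the ranges of the other libraries, 169 to 313 CPM and 80.1 to 128 CPM. Fgf3 stood at 10.3 CPM at E8.5 and at most 1.60 CPM elsewhere. At E8.5, 17 of its 26 UMIs came from 2 cells, and without these cells, an alternative chosen after the values were seen, the level was 3.61 CPM (1.65 to 6.86).

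Hoxb4, Hoxd4, Olig3 and Elavl3 had lower levels in the cells chosen at E8.5 than in those of every other library. Hoxb4 stood at 10.3 CPM against 47.2 to 276 CPM in the other libraries, and Hoxd4 at 21.8 CPM against 62.9 to 188 CPM. Olig3 stood at 29.3 CPM against 137 to 222 CPM. Elavl3, an RNA-binding protein of young neurons, stood at 1.19 CPM against 15.6 to 396 CPM. These genes were picked from a longer list followed in every library, and the rest of that list is not counted here. The share of the neural class differed between the libraries, and at E8.5 Olig3 was higher in that class than in the crest class. There was 1 library at E8.5, so these differences were not tested.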

How the data were processed

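Processed counts of 7 single-cell RNA libraries were analysed. The authors deposited UMI counts per gene and cell barcode, made with Cell Ranger 6.0.1 against the mm10 mouse reference, and pooled embryos gave each library. Group came from the labels. Cells with 1000 genes or more and 10% or less of mitochondrial UMIs were kept, and doublets were not removed. Counts were summed over cells and given as CPM (per 1000000 UMIs), and a gene entered a comparison at a mean of both levels of at least 10 CPM. A 2-fold ratio counted as higher or lower. Thinning used 5000 UMIs and seed 7. The members, lists and sets were chosen with earlier results of these data known. Named genes were the 8 of the rule, the listed genes, and the 12 highest and 12 lowest ratios, leaving out mitochondrial and sex-linked genes and, between the classes, the 7 genes that define them. Some listed genes enter the counts but are not reported here. Intervals are exact at 95%, and with 1 library no test was run. The counting was tested on simulated data. Software was Python 3.11.15, numpy 2.4.6, scipy 1.17.1, pandas 2.3.3 and, for the doublet score, scanpy 1.11.5. Alternatives changed the thresholds, doublets, scaling, thinning depth (3000 UMIs) and level filter. Total counts per library ran from 140264662 to 234844769 UMIs.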

Additional observations from a re-analysis of the deposited data

How the results depend on the processing

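No paired analysis was possible because the E8.5 group is 1 library and no result came from a test. The number of Hox-expressing cells was 112 to 153 with a Hox sum of at least 3 or 1 UMIs, and allowing 1 UMI of the excluded genes in sum gave 220 cells, 97 of them in the crest class, with 53 genes lower than in the Sox10 Hox cells, and 36 higher and 18 lower in the crest class than in the Sox10 Hox cells. The counts of genes moved with the filter on level. At a mean of at least 50 CPM, the genes higher and lower were 18 and 13 against the other cells, 20 and 14 against the Otx2 neural cells, 21 and 21 against the isthmus cells, 18 and 15 against the Sox10 Hox cells, 17 and 9 for the neural against the crest class, and 19 and 8 for the crest class against the Sox10 Hox cells. With no filter the same pairs were 1830 and 6762, 1733 and 4380, 1909 and 2997, 2287 and 3170, 2332 and 1879, and 1713 and 4625. Genes with a few UMIs fill those counts by the construction of this setting. Of 413 log2 ratios of 59 named genes under the alternatives, 373 stayed inside the counting interval and 40 moved beyond it. Among ratios of at least 2-fold in either direction 0 changed sign. A change of sign was not counted for smaller ratios. Of 38 shares of cells with a named gene 30 moved beyond the counting interval, and of 28 shares of cells meeting the rule per library 20 did. With 1 library, between-embryo spread was not measured, and a gene below 1.19 CPM lies under 3 counts in the 126 cells.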

Other observations

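Some genes high in the Hox-expressing cells stood in no list. Fst, which encodes an inhibitor of activins, stood at 99.3 CPM in 63 of the 126 cells, 12.2-fold above the other cells of the E8.5 library (10.6 to 14.0). The gene ccdc198 stood at 72.4 CPM in 39 cells, 22.8-fold above the other cells (19.0 to 27.1), and in the Otx2 neural cells it had 3 UMIs. Casz1, a zinc finger factor, stood at 21.0 CPM, 11.6-fold higher (8.45 to 15.6). Genes in no list were also lower. Phlda1 stood at 14.6 CPM against 120 CPM, 8.19-fold lower (5.94 to 11.6), and Ehbp1 at 1.58 CPM against 28.3 CPM, from 4 UMIs, 17.8-fold lower (6.97 to 65.5).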
